A study of Homo sapiens with 10 samples.

Results

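The genes described here encode subunits of the mitochondrial respiratory chain and ATP synthase that are carried in the nucleus. They were chosen by symbol, by a rule that uses no measured value but was set with earlier results of these data known: NDUFA, NDUFB, NDUFC, NDUFS or NDUFV followed by a digit, SDHA to SDHD, symbols starting with UQCR, CYC1, CYCS, the COX5 to COX8 families and symbols starting with ATP5. Of 20379 genes in the table, 87 symbols matched and 84 were kept as members, with 36 in complex I, 4 in complex II, 10 in complex III, 16 in complex IV, 17 in complex V and cytochrome c (CYCS) apart. The 3 matches left out were ATP5SL, an assembly factor, UQCRBP1, a pseudogene, and NDUFB2-AS1, an antisense RNA whose exclusion was decided after its symbol was seen. The pattern did not reach COX4I1, NDUFAB1, USMG5 and C14orf2, which also encode subunits and are given apart below. The subunits encoded in mitochondrial DNA are not analysed here. NDUFA4 and its paralog NDUFA4L2 were counted with complex IV, where NDUFA4 is now placed, and so was COX7A2L.

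RNA was sequenced from DBTRG-05MG and U87, 2 established human glioblastoma cell lines, after 0, 6, 12, 24 and 48 h with 1 mM dbcAMP, dibutyryl cyclic AMP, which enters cells and switches on protein kinase A. All 10 groups carry the same dose label, the 0 h libraries included. There was 1 library for each line and time, and nothing in the labels says that cultures were repeated. The samples used here hold no untreated library of a later time, so time in culture and treatment cannot be told apart. The series text gives 1 mol/L for 3 days, whereas the labels of the samples give 1 mM and times up to 48 h, and the labels were followed. Levels are in FPKM (fragments scaled for transcript length and for library size), a unit that was inferred from the values. In bulk RNA, fewer cells of a kind and less RNA per cell cannot be told apart.

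Total FPKM was 405316 to 487281 per library, and relative depth, judged from the size of the smallest steps, was 100 to 116.8% of the first library. The noncoding RNA BCYRN1 took 0.58 to 3.37% of the total in DBTRG-05MG and 7.38 to 13.3% in U87. Vimentin marked both lines, while PTPRC (a leukocyte marker) stayed at or below 0.04 FPKM and the 3 endothelial markers summed to at most 0.124 FPKM. In DBTRG-05MG the 4 leukocyte markers, CD68 foremost, summed to 62.4 to 113 FPKM, whereas U87 had 326 to 645, and their part in the results was not tested. GFAP, an astroglial marker, did not exceed 0.51 FPKM in any library, and SOX2, a glioma stem cell marker, was listed at 0 in U87. Tests used those 12352 genes whose mean over the libraries reached 1 FPKM, on log2(FPKM + 1). Of the 84 members, 77 passed this filter. The 7 that did not were UQCRHL, COX6B2, COX7A1, COX7B2, COX8C, ATP5L2 and ATP5S, mostly paralogs and tissue-restricted isoforms, whose highest value in any library was 2.40 FPKM (COX6B2, DBTRG-05MG, 24 h).

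The respiratory chain passes electrons from NADH through complex I, or from succinate through complex II, to ubiquinone. Complex III hands them on to cytochrome c, and complex IV reduces oxygen. Complexes I, III and IV pump protons across the inner membrane, and complex V uses the gradient to make ATP. All but complex II combine nuclear subunits with subunits made inside the mitochondrion, so that their assembly needs both genomes. Nuclear respiratory factor NRF1, the ETS factor GABPA and YY1 are known activators of subunit genes, and cyclic AMP acts on transcription largely through factors that bind the cAMP response element.

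Promoters of the subunit genes were searched for 4 exact motifs on both strands: the full cAMP response element TGACGTCA, the ETS core CCGGAAG, the NRF1 core GCATGCGC and the YY1 core AAGATGGC. The window was the 250 bases before each annotated start in RefSeq (GRCh38.p14), and a gene counted where any of its windows held the motif. Windows were at hand for 67 of the 84 members and for 15843 protein-coding genes. The NRF1 core was present in 14 members (20.9%), against 4.34% of all these genes, and the ETS core in 17 (25.4%), against 13.98%. The YY1 core was present in 1 member (1.49%, against 1.77%). The full cAMP response element was present in 4 members (5.97%), against 2.73% of all genes. By complex, the NRF1 core was in 5 of 31 genes of complex I, 2 of 3 of complex II, 0 of 7 of complex III, 2 of 14 of complex IV, 4 of 11 of complex V and in CYCS. A match is a description of the letters and says nothing of binding in these cells. The 4 members with the full cAMP response element are shown because the treatment was a cAMP analogue. Each stretch runs 5′ to 3′ along the gene's strand, in lower case, with the element alone in capitals. The element reads the same on both strands, and no matches shown here overlap each other.
ATP5G1, a gene of the c ring of complex V (chr17:48892700-48892767, plus strand): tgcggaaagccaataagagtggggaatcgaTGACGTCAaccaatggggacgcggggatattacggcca
ATP5I, subunit e of complex V (chr4:674397-674464, minus strand): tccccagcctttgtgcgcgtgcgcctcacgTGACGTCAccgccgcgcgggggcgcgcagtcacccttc
NDUFA10, an accessory subunit of complex I (chr2:240025353-240025420, minus strand): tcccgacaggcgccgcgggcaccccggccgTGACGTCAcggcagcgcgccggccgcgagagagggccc
NDUFB2, an accessory subunit of complex I (chr7:140696625-140696692, plus strand): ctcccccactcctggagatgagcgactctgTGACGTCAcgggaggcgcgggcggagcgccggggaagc
None of these 4 passed a test for change over time. Their log2 changes at 48 h in DBTRG-05MG were 0.27 for ATP5G1, -0.38 for ATP5I, 0.17 for NDUFA10 and 1.12 for NDUFB2. In U87 they were -0.06, -0.04, -0.27 and 0.57 in the same order. The direction thus differed among the 4, and NDUFB2 alone among them was over 1.5-fold higher in DBTRG-05MG.

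The whole windows of the members furthest above and furthest below 0 h at 48 h in the mean of both lines, 2 in each direction among members averaging 5 FPKM or more, are shown because they bound the range of the changes described below. Capitals again mark the 4 motifs, and of ATP5J only the outer window is shown.
COX7A2L, inner of its 2 annotated starts (chr2:42361218-42361467, minus strand): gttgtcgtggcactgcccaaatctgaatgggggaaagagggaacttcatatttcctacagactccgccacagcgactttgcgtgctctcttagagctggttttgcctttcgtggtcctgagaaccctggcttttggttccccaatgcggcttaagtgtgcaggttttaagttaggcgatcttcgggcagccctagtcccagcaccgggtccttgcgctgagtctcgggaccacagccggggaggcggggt
COX7A2L, outer start (chr2:42368958-42369207, minus strand): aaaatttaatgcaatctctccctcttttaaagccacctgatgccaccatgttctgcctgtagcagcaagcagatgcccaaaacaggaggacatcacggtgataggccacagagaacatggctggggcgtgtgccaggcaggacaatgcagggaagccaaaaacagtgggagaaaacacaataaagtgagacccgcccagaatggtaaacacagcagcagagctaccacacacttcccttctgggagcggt
NDUFA1 (chrX:119871582-119871831, plus strand): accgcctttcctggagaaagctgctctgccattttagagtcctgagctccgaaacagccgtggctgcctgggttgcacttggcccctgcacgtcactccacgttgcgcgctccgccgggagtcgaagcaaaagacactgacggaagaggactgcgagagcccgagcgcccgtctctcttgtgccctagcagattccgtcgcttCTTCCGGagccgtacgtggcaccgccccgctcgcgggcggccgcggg
ATP5J, outer of its 2 starts (chr21:25735055-25735304, minus strand): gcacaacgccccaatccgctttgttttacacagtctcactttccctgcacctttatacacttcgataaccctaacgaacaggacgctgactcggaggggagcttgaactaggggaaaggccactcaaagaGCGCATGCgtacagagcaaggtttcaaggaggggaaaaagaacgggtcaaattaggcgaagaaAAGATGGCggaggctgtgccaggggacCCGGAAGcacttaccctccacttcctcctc
NDUFA3 (chr19:54102605-54102854, plus strand): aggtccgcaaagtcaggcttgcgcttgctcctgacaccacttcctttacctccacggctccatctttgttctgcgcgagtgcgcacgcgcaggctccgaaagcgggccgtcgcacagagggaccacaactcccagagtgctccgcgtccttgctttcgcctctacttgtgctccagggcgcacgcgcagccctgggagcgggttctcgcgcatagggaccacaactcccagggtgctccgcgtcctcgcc
Neither window of COX7A2L and no stretch of NDUFA3 held any of the 4 motifs in these 250 bases. NDUFA1 held the ETS core 47 bases before its start. ATP5J held the NRF1 core at 120, the YY1 core at 57 and the ETS core at 30 bases before its outer start. The window of its inner start overlaps the outer one and held a further ETS core 8 bases before that start.

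Complex IV genes were the most abundant and complex II genes mostly the least. Over the tested members of each complex, the median level of complex IV was the highest of the 5 in 9 of 10 libraries and that of complex II the lowest in 8 of 10. In DBTRG-05MG the median of complex IV was 198 to 260.5 FPKM over the 5 libraries, that of complex III 120 to 160.3, that of complex V 121 to 164, that of complex I 74.7 to 99.7 and that of complex II 41.9 to 65.9. In U87 the corresponding ranges were 110.2 to 244, 94.1 to 143, 111 to 131, 54.6 to 76.6 and 62.6 to 76.0. Complexes III and V overlapped in level in both lines, and complexes I and II overlapped in U87. The 77 members together made up 1.69 to 3.16% of all FPKM. Within each complex the genes spread widely although their products are used in fixed ratios: in complex I the means ran from NDUFC2 (5.68 ± 1.60 FPKM, SD over 5 times, in DBTRG-05MG) to NDUFA3 (389 ± 111 FPKM). In complex IV COX6A1, the widely expressed form of subunit VIa, stood highest (662 ± 225 FPKM in DBTRG-05MG and 411 ± 70.7 in U87). ATP5B, the catalytic beta subunit, stood highest in complex V over both lines, with 619 ± 102 FPKM in DBTRG-05MG and 421 ± 46.0 in U87.

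**Figure D1:**
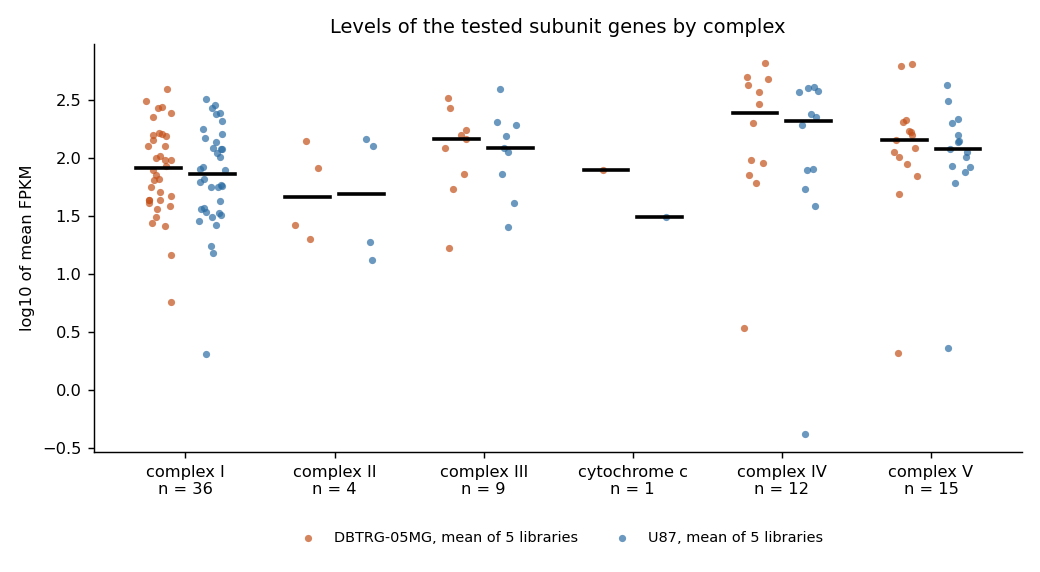
Levels of the 77 tested subunit genes, as log10 of the mean FPKM over the 5 libraries of a line, by complex. Each point is a gene and each bar the median of the points; the complex IV median lies highest in both lines, although NDUFA4L2 of that complex is the lowest point of U87.

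At 48 h most subunit genes stood above their 0 h level in DBTRG-05MG, and complex IV stood furthest above it. The median log2 change of the 77 members in that line was 0.00 at 6 h, 0.32 at 12 h, 0.31 at 24 h and 0.45 at 48 h, beside -0.07, 0.00, 0.05 and 0.02 for all tested genes. At 48 h, 61 of the 77 were higher than at 0 h and 16 lower, and 30 were at least 1.5-fold higher against 2 at least 1.5-fold lower. By complex the 48 h median was 0.44 for complex I, 0.47 for II, 0.35 for III, 1.00 for IV and 0.28 for V. The DBTRG-05MG 48 h library held the highest value of its line for 39 of 77 members (50.6%), against 28.2% of all tested genes. The 0 h library held the lowest for 30 (39.0%), against 19.5%.

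U87 took another course, low at 24 h and near or above the start at 48 h. The members' medians in U87 were 0.15, -0.08, -0.50 and 0.11 at 6, 12, 24 and 48 h, beside -0.01, -0.04, -0.15 and -0.15 for all tested genes. With each library centred on the median log2 level of all tested genes, the members' median change was -0.28 at 24 h and 0.35 at 48 h. That median level is a different quantity from the all-gene median change given above. The U87 24 h library held the lowest value of its line for 57 of 77 members (74.0%), against 30.2% of all tested genes. At that time 65 members were below 0 h and 12 above, with complex IV lowest (median -0.64) and 9 of 9 complex III genes below 0 h. At 48 h the medians of complexes I to V in U87 were 0.06, 0.20, 0.24, 0.38 and 0.04, with 11 of 12 complex IV genes above 0 h. Members higher than at 0 h in both lines at 48 h numbered 45 of 77 (58.4%), against 23.6% of all tested genes. At 24 h, 64 of 77 stood on opposite sides of 0 h in the lines, against 7160 of 12352 tested genes.

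**Figure D2:**
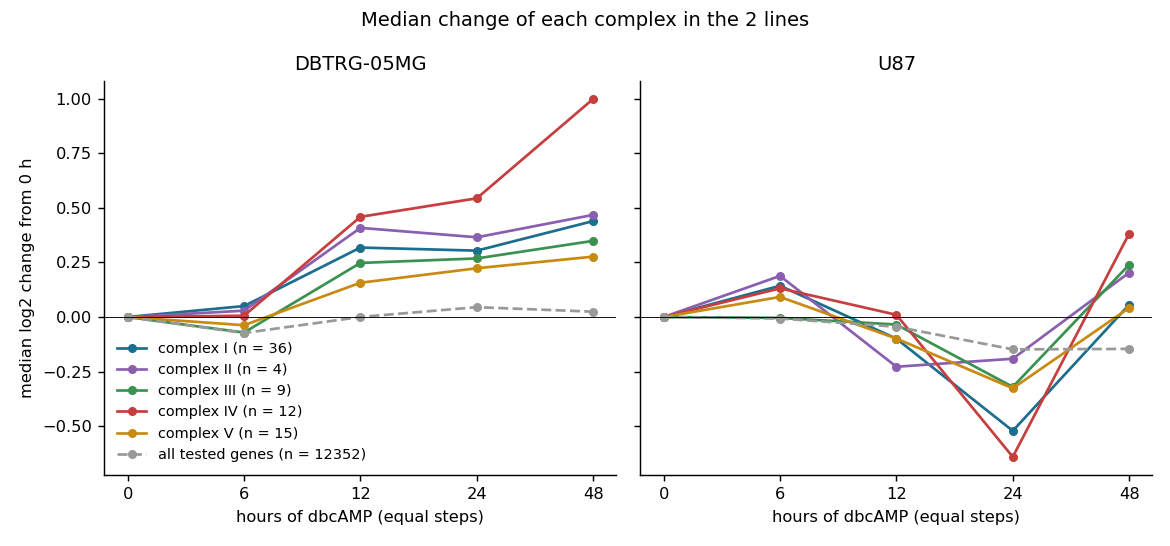
Median log2 change from 0 h over the tested genes of each complex at each time, in DBTRG-05MG (left) and U87 (right), with the median of all 12352 tested genes as a dashed line. Complex IV reaches 1.00 in DBTRG-05MG at 48 h, and in U87 it goes from -0.64 at 24 h to 0.38 at 48 h.

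Hardly any of these changes passed a test across all genes. With 1 library per line and time, the spread behind the test at each time is the disagreement of the lines, whose median SD was 0.33 on the log2 scale for members and 0.27 for all tested genes. Using limma with Benjamini-Hochberg adjustment over all 12352 genes and a threshold of 0.05, 0 of 77 members passed at 6, 12, 24 or 48 h, where 0.0081, 0.0081, 0.0081 and 0% of all tested genes passed. At an unadjusted p under 0.05 the members numbered 0, 0, 0 and 5 at these times. The 5 at 48 h were 6.49% of the members, against 12.2% of all tested genes, and at 6, 12 and 24 h the all-gene shares were 5.31, 4.47 and 3.51%. For trends over the rank of time, the spread is the scatter around straight lines in 1 culture series per line, pooled over both lines. The mean trend of both lines passed for 0 members (6 unadjusted, 7.79% against 17.5% of all genes), where 0.0729% of all genes passed. The difference in trend between the lines passed for 0 (8 unadjusted, 10.4% against 13.4%), where 0.0162% passed. Within each line, a test added after the data were seen, the trend passed for 1 member in DBTRG-05MG (19 unadjusted, 24.7% against 17.9% of all genes), where 1.12% of all genes passed. In U87 it passed for 0 members (0 unadjusted, against 12.5% of all genes), where 0% of all genes passed. Without the U87 24 h library, 5 members passed in DBTRG-05MG (COX7A2L, COX7C, NDUFA1, NDUFA13 and UQCR11) and 2 in the mean trend (COX7A2L and NDUFA13), all upward. The share of all tested genes passing in these fits is not given, so the counts cannot be read as particular to the subunits.

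Transcript base composition moved with the changes in several libraries. Across the 77 members, Spearman's rho between transcript GC content and change from 0 h was -0.34 in DBTRG-05MG at 48 h, -0.42 at 24 h, -0.43 in U87 at 6 h and 0.29 in U87 at 24 h. For all tested genes with a GC value it was -0.04, -0.21, -0.15 and 0.37 in the same order. Members' rho elsewhere was 0.15 and -0.29 in DBTRG-05MG at 6 and 12 h, and 0.07 and -0.14 in U87 at 12 and 48 h. These are correlations over genes that share libraries. At 48 h in DBTRG-05MG the median change was 0.78 for the 20 members under 45% GC, 0.51 for the 36 between 45 and 55% and 0.16 for the 21 above. For all tested genes in the same 3 classes it was 0.06, 0.02 and -0.01. In U87 at 24 h the members' medians were -0.52, -0.51 and -0.27, and those of all tested genes -0.39, -0.10 and 0.00. After a smooth fit on GC was subtracted from each library, the members' medians were 0.43 in DBTRG-05MG at 48 h, -0.38 in U87 at 24 h and 0.28 in U87 at 48 h. Complex IV then stood at 1.00, -0.58 and 0.61. Members' transcripts are short, with a median of 712 nt against 1812.5 nt for all tested genes, and those of complex IV were the shortest (619 nt). Spearman's rho between transcript length and change from 0 h ran from -0.10 to 0.11 for members over the 8 later libraries.

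**Figure D3:**
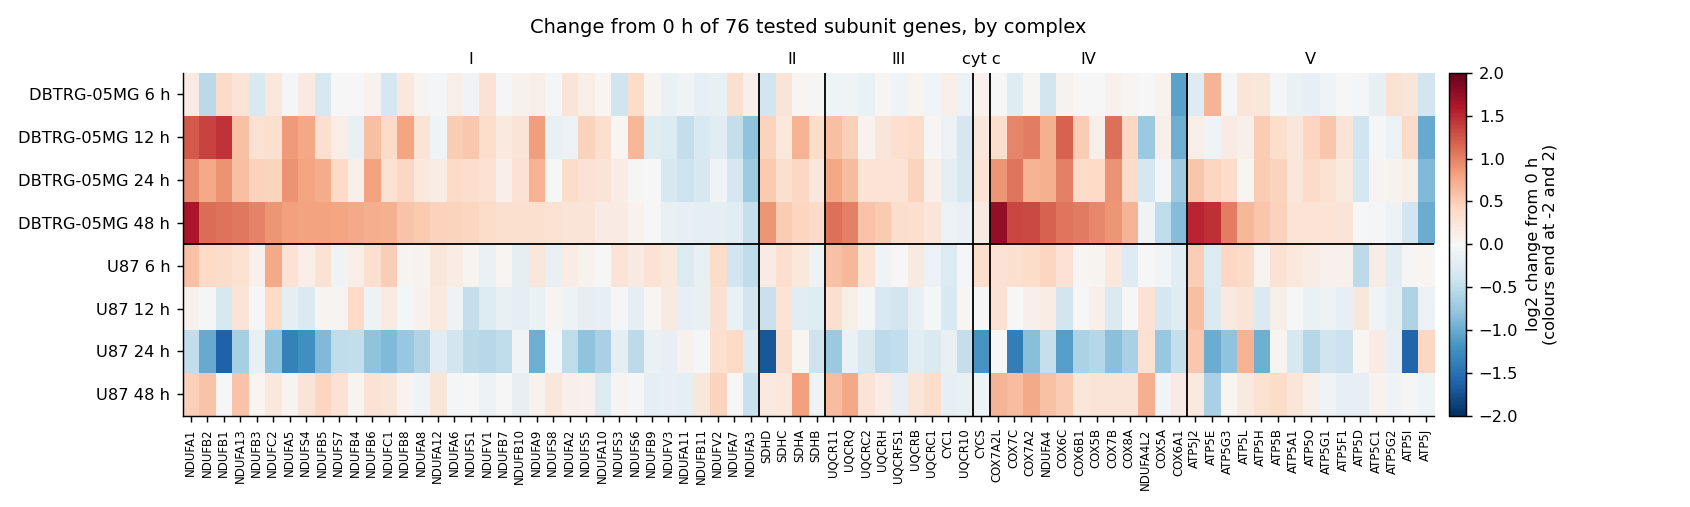
Log2 change from 0 h of 76 of the 77 tested subunit genes (columns, ordered within each complex by the change in DBTRG-05MG at 48 h) in each later library (rows). Red marks levels above 0 h and blue levels below it. In U87 at 24 h 64 of the 76 columns are below 0 h, and in DBTRG-05MG at 48 h 60 are above it.

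Most complex I genes stood above 0 h in DBTRG-05MG at 48 h, with a few below. At 48 h, 30 of its 36 genes were above 0 h in DBTRG-05MG and 6 below, and in U87 23 were above and 13 below. The 7 core subunits, which carry the flavin and iron-sulphur centres and the quinone site, had a 48 h median of 0.37 in DBTRG-05MG, and the 29 accessory subunits 0.45. In U87 these were 0.06 and 0.06. Levels below are given in the order 0, 6, 12, 24 and 48 h.

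NDUFA1, a small X-linked accessory subunit needed for assembly of the membrane arm (chromosome X, positions 119871832 to 119876662), measured 34.1, 38.2, 80.8, 66.1 and 108 FPKM in DBTRG-05MG. In U87 it measured 70.1, 106, 74.4, 49.4 and 98.1 FPKM. It was highest at 48 h in DBTRG-05MG but at 6 h in U87, and the ranges of the lines overlapped. The mean log2 difference of 48 h from 0 h was 1.05 (SE 0.43, adjusted p = 0.372), the largest in complex I. NDUFB2, a membrane-arm accessory subunit, measured 22.1, 14.9, 58.1, 38.1 and 49.3 FPKM in DBTRG-05MG and 40.5, 53.4, 39.9, 19.6 and 60.5 in U87. Its level at 6 h was the lowest of DBTRG-05MG, and at 24 h that of U87. NDUFA13 (GRIM-19), an accessory subunit also known from studies of cell death, measured 153, 184, 231, 233 and 320.1 FPKM in DBTRG-05MG and 215, 266, 257, 135 and 319 in U87, with a 48 h difference of 0.81 (SE 0.32, adjusted p = 0.355). In both lines its 48 h library was the highest. With all 10 libraries the mean trend of NDUFA13 did not pass. Of the alternatives and left-out libraries, it passed only without the U87 24 h library. There it was 0.19 per step of time (SE 0.035, limma, adjusted p = 0.0468).

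Among the core subunits, NDUFS7, an iron-sulphur subunit next to the quinone site, had the largest 48 h change in DBTRG-05MG (0.79), with 103, 102, 113, 136 and 179 FPKM there and 139, 133, 145, 97.2 and 169.9 in U87. NDUFV1, which binds FMN and takes electrons from NADH, had log2 changes of 0.29 at 6 h and 0.37 at 48 h in DBTRG-05MG, against -0.13 at 6 h and -0.11 at 48 h for U87. Its partner NDUFV2 ran the other way, with -0.18 at 48 h in DBTRG-05MG and 0.44 in U87. NDUFS1 (48 h changes 0.43 and 0.01), NDUFS3 (0.16 and 0.06) and NDUFS8 (0.31 and 0.23) are core subunits as well. None of the core subunits passed a test over time.

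Few complex I genes stood below 0 h in both lines. NDUFA3, a small accessory subunit and the most abundant of the complex in DBTRG-05MG (in U87 NDUFS5 was, at 323 ± 72.4 FPKM), measured 488, 524, 280.3, 297 and 353 FPKM in DBTRG-05MG and 351, 246, 268, 292 and 257 in U87. It was lower at 12, 24 and 48 h than at 0 h in both lines, with a 48 h difference of -0.46 (SE 0.29, adjusted p = 0.552). NDUFA11, an accessory subunit of the membrane arm, had 48 h changes of -0.17 in DBTRG-05MG and -0.18 in U87. NDUFC2 was low, at 4.05 to 8.28 FPKM in DBTRG-05MG and 0.510 to 3.47 in U87. RefSeq also annotates a read-through gene across it, NDUFC2-KCTD14, and how reads were split between them was not tested.

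Complex II, which is also the succinate dehydrogenase of the citric acid cycle, was above 0 h in 4 of 4 genes at 48 h in DBTRG-05MG and in 3 of 4 in U87. SDHA, the flavoprotein (chromosome 5, positions 218320 to 268746), measured 63.7, 65.4, 104, 85.3 and 86.3 FPKM in DBTRG-05MG and 125, 144, 107, 128 and 221 in U87. Every U87 value lay above every DBTRG-05MG value, and the U87 48 h library stood far above the rest. SDHA has close pseudogene copies, and a split of reads with them was not tested. SDHB, the iron-sulphur subunit, measured 122, 124, 158, 143 and 159 and 141, 132, 119, 105 and 133 FPKM, all later libraries being above 0 h in DBTRG-05MG and below it in U87. The membrane anchors SDHC and SDHD differed from each other in U87 at 24 h: SDHC measured 15.9, 20.3, 19.3, 20.0 and 18.5 FPKM in U87 and SDHD 15.6, 17.6, 11.2, 4.09 and 18.0. SDHD thus had its lowest value at 24 h, while SDHC was nearly level after 0 h. In DBTRG-05MG SDHC measured 16.4, 19.7, 19.2, 20.6 and 23.6 and SDHD 20.1, 15.4, 27.8, 29.5 and 38.1 FPKM, both highest at 48 h. The largest 48 h difference in the complex was that of SDHA, 0.63 (SE 0.31, adjusted p = 0.451).

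In complex III the small subunits UQCRQ and UQCR11 had the largest rises from 0 h to 48 h, and cytochrome c1 stayed near its starting level. UQCRQ (chromosome 5, positions 132866642 to 132868847) measured 38.8, 36.9, 54.6, 60.5 and 78.9 FPKM in DBTRG-05MG and 32.5, 52.0, 35.5, 29.6 and 56.2 in U87. The 48 h library was the highest in both lines, with a difference from 0 h of 0.89 (SE 0.32, adjusted p = 0.317). UQCR11 measured 49.0, 46.3, 74.6, 84.8 and 106 and 61.3, 92.5, 77.1, 36.3 and 94.9 FPKM, with 0.86 (SE 0.42, adjusted p = 0.446). Both lines had more of it at 48 h than at 0 h, and U87 had its lowest value at 24 h. Cytochrome c1 (CYC1) measured 163, 177, 151, 142 and 150.3 and 175, 145, 141, 157 and 155 FPKM, with 48 h changes of -0.12 and -0.17. The Rieske iron-sulphur protein UQCRFS1 had 48 h changes of 0.35 in DBTRG-05MG and -0.17 in U87. The core proteins UQCRC1 and UQCRC2, which face the matrix, had 48 h changes of 0.25 and 0.57 in DBTRG-05MG. Their U87 changes were 0.36 and 0.26. UQCRH, the hinge protein between cytochromes c1 and c, was the most abundant, at 327 ± 49.6 FPKM (SD over 5 times) in DBTRG-05MG and 393 ± 70.4 in U87. Its near-identical copy UQCRHL was at most 0.551 FPKM in any library. UQCR10 was slightly below 0 h at 48 h, with -0.15 and -0.14.

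Cytochrome c, which shuttles electrons between complexes III and IV and also triggers apoptosis when released, showed little change in DBTRG-05MG and a low U87 24 h value. CYCS (chromosome 7, positions 25118656 to 25125260) measured 71.0, 75.6, 83.4, 85.6 and 80.7 FPKM in DBTRG-05MG and 33.4, 43.0, 33.2, 14.2 and 31.3 in U87. Its 48 h difference was 0.04 (SE 0.36, adjusted p = 0.969).

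Complex IV had the highest 48 h median in both lines and held the 1 gene that passed a time test. COX7A2L, or SCAF1, a relative of subunit VIIa that joins complexes III and IV into supercomplexes (chromosome 2, positions 42335559 to 42368957), measured 35.5, 35.8, 45.7, 66.0 and 122 FPKM in DBTRG-05MG. In U87 it measured 65.8, 81.1, 81.7, 65.5 and 106 FPKM. In DBTRG-05MG it rose from 12 h on and was 3.44-fold its 0 h level at 48 h, and in U87 it was 1.61-fold. The trend within DBTRG-05MG was 0.44 log2 units per step of time (SE 0.08, adjusted p = 0.0396, limma with Benjamini-Hochberg adjustment). Every later library of that line lay above 0 h. The p-value rests on scatter around straight lines in 1 culture series per line, not on repeated cultures. After the GC adjustment the trend was 0.42 (adjusted p = 0.0313). Over the alternatives and left-out libraries its adjusted p ran from 0.00846, with time in hours, to 0.532, without the DBTRG-05MG 48 h library. The call was also lost without DBTRG-05MG 6 h (0.127) or 24 h (0.102), without U87 6 h (0.058) or 12 h (0.0717), with a pseudocount of 0.1 (0.0748), with no filter on low values (0.0612) and with time as log2 of hours plus 1 (0.223). The 48 h difference over both lines was 1.22 (SE 0.34, adjusted p = 0.203), and the difference in trend between the lines was -0.33 (adjusted p = 0.302).

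COX7A2, the widely expressed form of subunit VIIa, shared the direction in both lines, with 58.9, 59.8, 121, 95.5 and 148 FPKM in DBTRG-05MG and 70.2, 91.2, 75.8, 38.7 and 119 in U87. The 48 h libraries were the highest of both lines, and the difference from 0 h was 1.04 (SE 0.40, adjusted p = 0.344). COX7A1, the heart and muscle form of the same subunit, was at most 0.592 FPKM. COX7C measured 282, 239, 558, 591 and 709.8 FPKM in DBTRG-05MG and 231, 289, 232, 87.9 and 356 in U87. At 48 h it stood at 2.52-fold its 0 h level in DBTRG-05MG, and its U87 24 h value was under that of all other libraries. COX6C measured 53.4, 56.4, 122, 109 and 113 FPKM in DBTRG-05MG and 55.3, 67.5, 42.5, 25.2 and 78.7 in U87. COX7B measured 314, 335, 676, 586 and 581 FPKM in the former and 422, 489, 345, 236 and 503 in the latter. Both were likewise lowest of all 10 libraries in U87 at 24 h. COX6B1, which faces cytochrome c, measured 275, 273, 391, 355 and 566 FPKM in DBTRG-05MG and 384, 389, 386, 246 and 448 in U87. COX5B had 48 h changes of 0.96 and 0.26, and COX8A of 0.68 and 0.26.

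COX6A1, COX5A and NDUFA4L2 were the complex IV genes below their 0 h level at 48 h in DBTRG-05MG. COX6A1 measured 1053, 500.3, 537, 646 and 574 FPKM in DBTRG-05MG and 452, 389.9, 383, 324 and 508 in U87. The DBTRG-05MG 0 h library was far above the other 9, so each later library of that line lay lower, and U87 was slightly above 0 h at 48 h. COX5A measured 303, 318, 325, 299.6 and 213 and 224, 215, 178, 132 and 215 FPKM, with its lowest DBTRG-05MG value at 48 h. The 48 h difference was -0.35 (SE 0.30, adjusted p = 0.672) for COX6A1 and -0.28 (SE 0.29, adjusted p = 0.728) for COX5A. The testis-type COX6B2 was at most 2.40 FPKM, COX8C was above 0 in 1 library and COX7B2 was listed at 0 in all 10.

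NDUFA4 and NDUFA4L2, a paralog induced by hypoxia, differed widely in level. NDUFA4 measured 48.0, 36.9, 78.9, 79.1 and 109.7 FPKM in DBTRG-05MG and 34.0, 45.9, 37.9, 24.4 and 51.7 in U87. NDUFA4L2 (chromosome 12, positions 57234903 to 57240762) measured 4.08, 4.07, 2.05, 3.00 and 3.82 and 0.166, 0.162, 0.431, 0.443 and 0.903 FPKM. NDUFA4 was highest at 48 h in both lines, with a difference of 0.88 (SE 0.40, adjusted p = 0.413). NDUFA4L2 was highest at 48 h in U87, where it stayed under 1 FPKM, and at 0 h in DBTRG-05MG.

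**Figure D4:**
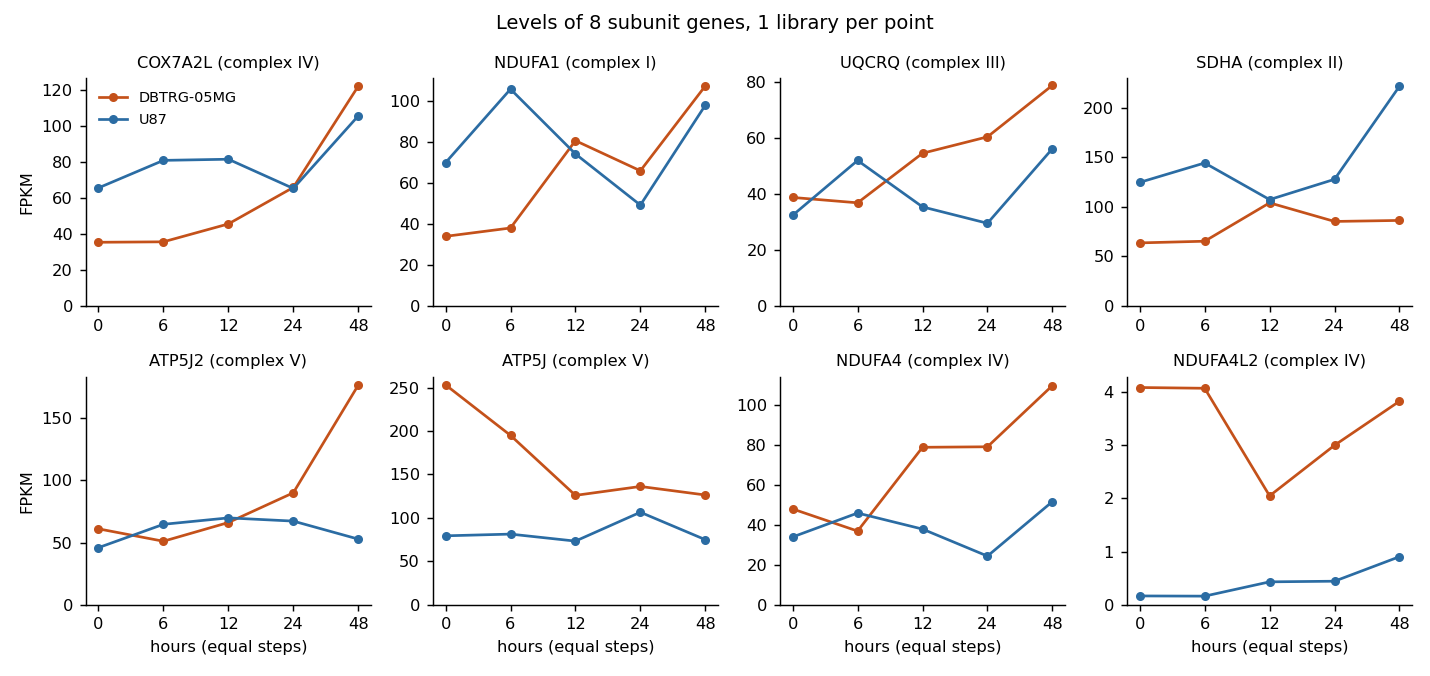
FPKM of 8 subunit genes at 0, 6, 12, 24 and 48 h (equal steps on the axis) in DBTRG-05MG and U87, 1 library per point, with each vertical axis starting at 0. COX7A2L reaches 122 FPKM in DBTRG-05MG at 48 h, ATP5J runs downward from 253 FPKM there, and the lines of SDHA, ATP5J and NDUFA4L2 do not overlap.

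Complex V, the ATP synthase, had the lowest 48 h median of the 5 complexes in both lines, with single genes far on either side. At 48 h in DBTRG-05MG 10 of its 15 tested genes were above 0 h and 5 below, and in U87 8 were above and 7 below. By portion, the 48 h medians in DBTRG-05MG were 0.28 for the 5 genes of the catalytic F1 head, 0.27 for the 4 of the peripheral stalk and 0.47 for the 6 of the membrane portion. The alpha subunit ATP5A1 measured 188, 171, 219.7, 219.6 and 228 FPKM in DBTRG-05MG and 209, 243, 210.3, 167 and 248 in U87. The beta subunit ATP5B measured 516, 502, 662, 702 and 711 and 373, 458, 403, 389 and 479.7 FPKM. The gamma subunit ATP5C1, the rotating shaft, measured 115, 103, 112, 119 and 113 and 131, 145, 124, 147 and 137 FPKM. Alpha and beta stood above 0 h at 48 h in both lines, and gamma kept within a narrow range.

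The 3 genes of the c ring, which encode the same mature protein, took separate courses. ATP5G1 measured 85.8, 81.1, 127, 106 and 103 FPKM in DBTRG-05MG and 109, 116, 101, 82.1 and 104 in U87. ATP5G2 measured 204, 253, 187, 215 and 191 and 215, 186, 189, 193 and 205 FPKM. ATP5G3 measured 53.9, 52.5, 60.2, 69.7 and 111 and 74.3, 98.9, 83.9, 42.0 and 76.6 FPKM. ATP5G3 was highest at 48 h in DBTRG-05MG, where ATP5G1 peaked at 12 h and ATP5G2 at 6 h. None of the 3 passed a test, and the differences between them were not tested.

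ATP5J2, subunit f of the membrane portion (chromosome 7, positions 99458195 to 99466167), had the largest 48 h difference of the complex. It measured 61.1, 51.1, 66.2, 90.1 and 177 FPKM in DBTRG-05MG and 46.0, 64.8, 69.9, 67.3 and 52.9 in U87. The DBTRG-05MG 48 h library stood far above the other 9, and in U87 the 48 h library was below those at 6, 12 and 24 h. The mean difference was 0.86 (SE 0.42, adjusted p = 0.446), and the trend within DBTRG-05MG 0.38 per step (SE 0.10, adjusted p = 0.0838). ATP5J, coupling factor 6 of the peripheral stalk (chromosome 21, positions 25724500 to 25735653), measured 253, 195, 126, 136 and 126 and 79.4, 81.4, 73.3, 107 and 75.0 FPKM. It had the lowest 48 h difference of the members, -0.54 (SE 0.31, adjusted p = 0.509), carried by DBTRG-05MG, and its U87 values were highest at 24 h. ATP5I (subunit e) measured 596, 709, 774, 649 and 459 FPKM in DBTRG-05MG and 389, 395, 253, 129 and 379 in U87, lowest at 48 h in the former and at 24 h in the latter. ATP5E (epsilon) was listed at 0.922 to 4.57 FPKM in DBTRG-05MG and 1.20 to 3.37 in U87. RefSeq annotates a read-through gene over ATP5E too (SLMO2-ATP5E), and the split of reads was not tested.

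The lines differed from each other in 26 of 77 subunit genes (33.8%), against 55% of all tested genes. This test takes the 5 times as matched pairs, so its p-values measure the steadiness of the difference over times in a single culture series per line. As deposited, 21 of the 26 were higher in DBTRG-05MG and 5 in U87. All tested genes had a median difference of 0.18 log2 units toward DBTRG-05MG as deposited. The split depended on scaling, and the reason was not tested. With each library centred on its median the split was 9 and 15, with upper quartiles equalised 11 and 10, and after GC adjustment 11 and 16. Of all 12352 tested genes, 6950 passed after median centring and 6820 after upper quartile scaling, in either direction. How all tested genes split by direction under these scalings is not given, so the turn cannot be read as particular to the subunits. Without the 12 h library of either line, 15 members passed in place of 26. Called in the same direction under all 4 were 9 genes higher in DBTRG-05MG (among them ATP5I, ATP5J, CYCS, NDUFA12, NDUFA4L2, NDUFA6, NDUFC1 and NDUFC2) and 5 higher in U87 (ATP5F1, NDUFA11, NDUFB3, SDHA and UQCRB). Values of the lines did not overlap for 18 members (23.4%), against 40.9% of all tested genes.

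With the pseudocount of 1 the largest difference was in ATP5F1, subunit b of the peripheral stalk (chromosome 1, positions 111449464 to 111462773), with 44.0, 43.7, 53.0, 50.8 and 52.7 FPKM in DBTRG-05MG and 173, 184, 153, 129 and 154 in U87. Every U87 value lay above every DBTRG-05MG value, with a log2 difference of -1.67 (SE 0.15, adjusted p = 1.7e-05). In the opposite direction, NDUFA4L2 differed by 1.63 (SE 0.19, limma, adjusted p = 9.6e-05) and CYCS by 1.40 (SE 0.23, adjusted p = 7.5e-04). NDUFA4L2 averaged 3.40 FPKM in DBTRG-05MG and 0.421 in U87. It thus passed the filter of 1 FPKM only through DBTRG-05MG, where it is high, and its call is not separate from that filter. With the filter at 5 FPKM it was not tested. With a pseudocount of 0.1 NDUFA4L2 differed by 2.89 and ATP5F1 by -1.69, so their order turned. NDUFC1, an accessory subunit of the membrane arm of complex I, measured 38.9, 30.4, 51.2, 48.2 and 64.5 FPKM in DBTRG-05MG and 16.6, 23.7, 18.9, 8.54 and 19.8 in U87. Its difference was 1.39 (SE 0.25, adjusted p = 0.00136), with no overlap. The difference was 1.20 for NDUFC2, 1.13 for ATP5I and 1.01 for SDHD, each higher in DBTRG-05MG as deposited. SDHA (-0.81), NDUFB3 (-0.67), UQCRB (-0.56) and NDUFA11 (-0.38) were higher in U87. The call of NDUFA11 lay close to the threshold as deposited (limma, adjusted p = 0.0497), and its values overlapped between the lines. It was lost with the filter at 5 FPKM (0.0524) and without the mean-variance trend (0.0585).

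**Figure D5:**
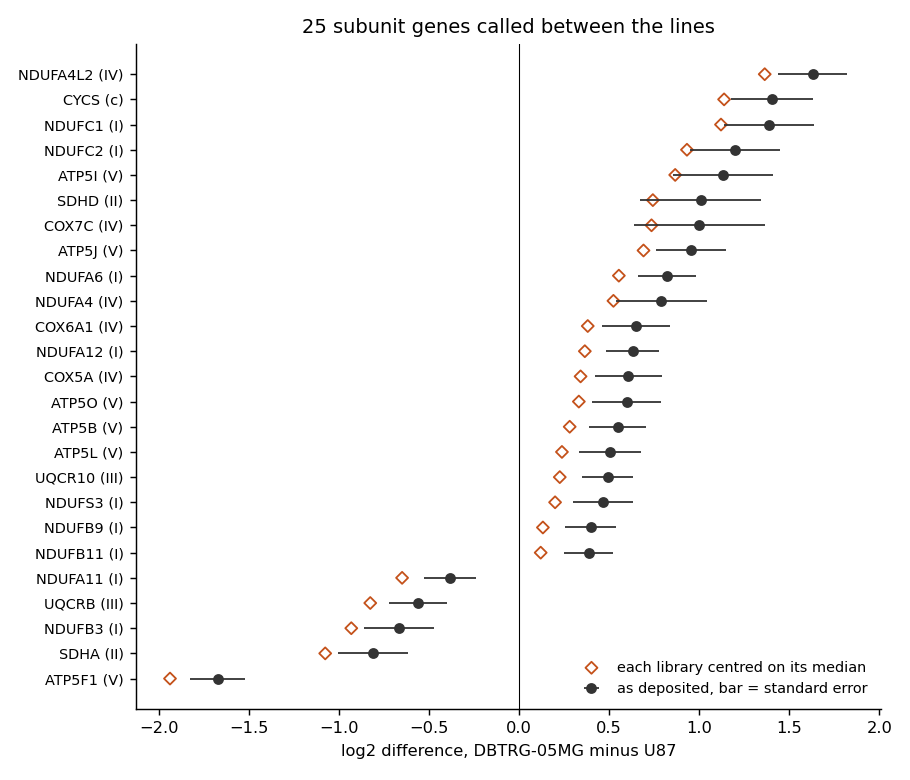
Log2 difference between the lines, DBTRG-05MG minus U87, for 25 of the 26 subunit genes that passed the threshold as deposited (filled points, bars show the standard error), with the value after centring each library on its median (open diamonds). ATP5F1 lies furthest to the left at -1.67 and NDUFA4L2 furthest to the right at 1.63, and centring moves every plotted gene to the left.

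By complex, the calls between the lines as deposited leaned toward DBTRG-05MG in complexes I, IV and V, as did those of all 12352 tested genes (4350 higher there and 2439 higher in U87). In complex IV 5 of 12 genes were higher in DBTRG-05MG and 0 in U87. The counts were 8 and 2 of 36 for complex I, 1 and 1 of 4 for complex II, 1 and 1 of 9 for complex III and 5 and 1 of 15 for complex V. Of the complex IV genes called, NDUFA4L2 alone was called under all 4 scalings, and it passed the filter on level only through DBTRG-05MG.

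Other mitochondrial gene groups were set beside the subunits. The 4 tested subunit genes outside the symbol pattern, a list added after the symbols were seen, had medians of 0.82 in DBTRG-05MG at 48 h, -0.75 in U87 at 24 h and 0.15 in U87 at 48 h. COX4I1, the main regulatory subunit of complex IV, measured 119.8, 159, 252, 194 and 200.2 FPKM in DBTRG-05MG and 316, 349.6, 303, 186 and 426 in U87. Its U87 values ran like those of most complex IV members, lowest at 24 h and highest at 48 h. Assembly factors, which build the complexes without being part of them, had medians of 0.19, -0.40 and -0.19 at these 3 points over 49 tested genes. Their list also holds ATPIF1, an inhibitor of ATP synthase. Citric acid cycle enzymes had 0.01, -0.10 and -0.12 over 13 genes. Mitochondrial ribosomal proteins had 0.07, -0.31 and -0.29 over 78 genes. These were taken by symbol pattern with pseudogenes left in (MRPL42P5, MRPL45P2 and MRPS31P5), unlike the subunits. None of the subunits outside the pattern, assembly factors, cycle enzymes or mitochondrial ribosomal proteins passed a test over time. Glycolytic enzymes, the other main route to ATP, had -0.43, 0.31 and 0.01 over 16 genes, with 1 of 16 above 0 h in DBTRG-05MG at 48 h. Cytosolic ribosomal proteins, whose transcripts are as short as those of the subunits (median 689 nt), had 0.46, -0.57 and 0.13 over 80 genes, with 1 higher in the DBTRG-05MG trend. The 77 subunit genes had 0.45, -0.50 and 0.11 at the same points.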

How the data were processed

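Poly(A) RNA of 2 glioblastoma lines was sequenced at 5 times, 1 library each, and aligned and quantified with HISAT, Bowtie2 and RSEM on hg38, per the submitters' processing notes (no versions, roles or annotation). The authors deposited a single table of 20379 genes by 10 libraries, whose values were read as FPKM because they are not whole, sum to different totals and lie under the totals TPM would give; no label names the unit. The value 0.002 was read as 0. Counts were not used here, so no counting interval is given, and a value of 0 means not detectable at this depth.

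Members and gene lists were chosen with earlier results of these data known. Symbols were matched to RefSeq (65 by symbol, 19 by synonym), and transcript GC came from GENCODE release 29 (93.3% of tested genes). The 12352 genes averaging 1 FPKM or more were put on a log2(FPKM + 1) scale and fitted by limma (version 3.58.1, R version 4.3.3; empirical Bayes with a mean-variance trend, two-sided, Benjamini-Hochberg over all of them, threshold 0.05). Fold changes on this scale understate the change of low genes. Times were compared with 0 h with line as a block (4 residual degrees of freedom), trends used the rank of time, the line and their product (6), and lines were compared with time as a block. The pairing comes from the design, since libraries of a line share the cell line. Alternatives were the pseudocount (0.1), the filter (none, or 5), median centring, upper quartile scaling, no mean-variance trend, a threshold of 0.1, no replicate block, time in hours or log2 hours, and leaving out each library. The trends within a line and the GC adjustment (loess, span 0.5) were chosen after seeing the data. Named genes were those that passed a test (at most 6 per direction), the highest, the 2 furthest up and down at 48 h and the 2 furthest apart between lines in each complex, and fixed sets of core subunits, c ring genes and isoform pairs. Other members are given by value, and 1 gene that the rule names is not reported here. Fits of time, trend and line were first tested on simulated data. Figures and tables used Python 3.11.15 with pandas 2.3.3, numpy 2.4.6 and matplotlib 3.10.9.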

Additional observations from a re-analysis of the deposited data

Results flagged for a closer look

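In 5 subunit genes every later library of a line lay on one side of its 0 h level and every later library of the other line on the opposite side. How many of all tested genes met this rule was not counted, so the 5 cannot be read as particular to the subunits. Opposite sides at a single time were common. At 24 h they were seen in 64 of 77 members and 7160 of 12352 tested genes, and at 48 h in 22 and 4721. The values below are mean log2 changes from 0 h over the 4 later libraries, U87 minus DBTRG-05MG. The difference was -0.47 for NDUFA10, -0.39 for NDUFB10, -0.59 for NDUFV1, -0.46 for SDHB and 0.51 for NDUFV2. In the first 4 DBTRG-05MG was above 0 h and U87 below, and in NDUFV2 the reverse. NDUFV1 and NDUFV2 together form the NADH-oxidising tip of complex I, and the mean change of NDUFV1 was 0.33 in DBTRG-05MG and -0.27 in U87, that of NDUFV2 -0.15 and 0.36. The difference in trend between the lines did not pass the threshold for any of the 5 (limma, adjusted p = 0.437, 0.506, 0.496, 0.466 and 0.529 in the order named).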

How the results depend on the processing

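The split of calls between the lines turned over with scaling, from 21 higher in DBTRG-05MG and 5 in U87 as deposited to 9 and 15 after median centring and 11 and 16 after GC adjustment, and the members' median difference went from 0.17 to -0.10 and -0.16. Among the genes named for a call, none changed direction under the alternatives run. The counts of members at 6, 12, 24 and 48 h, in the trend difference and in the U87 trend were 0 under every alternative, left-out libraries included. Without the replicate block (the pairing by line or time) the counts at each time were still 0 and 27 members differed between the lines, 26 of them shared with the blocked fit. The DBTRG-05MG trend, 1 member (COX7A2L) as reported, gave 0 with a pseudocount of 0.1, 0 without the filter, 0 with time as log2 hours, 3 with time in hours and 3 at a threshold of 0.1, the added members being ATP5J2 and NDUFB3. At a threshold of 0.1, 403 of 12352 tested genes passed the DBTRG-05MG trend. The mean trend gave 1 (COX7A2L) with time in hours and 1 at a threshold of 0.1, where 139 of all tested genes passed. Leaving out each library in turn gave 0 to 5 members for the DBTRG-05MG trend (5 without U87 24 h; 0 without DBTRG-05MG 6, 24 or 48 h or U87 6 or 12 h), 0 to 2 for the mean trend (2 without U87 24 h) and 15 to 24 for the difference between the lines (15 without either 12 h library). The complex IV median at 48 h was 0.62 over both lines, 1.00 in DBTRG-05MG alone and 0.38 in U87 alone. Of the genes named for a call, 191 values kept their side of the threshold and 36 lost it. With 1 library per line and time, a change present in 1 line alone widens the spread of the tests at each time. ATP5E, NDUFC2 and NDUFA4L2 were low in FPKM, and read counts were not used here. Why values moved under the alternatives was not tested.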

Other observations

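The medians of assembly factors were set beside those of the subunits of the same complex, with no test of the difference. At 48 h in DBTRG-05MG the 19 tested assembly factors of complex IV had a median log2 change of 0.26, beside 1.00 for its 12 subunit genes, and the 16 of complex I had 0.14, beside 0.44 for 36. The 4 of complex II had 0.50, beside 0.47 for its 4 subunit genes, and the 6 of complex III 0.09, beside 0.35 for 9. The 4 genes listed for complex V had -0.22, beside 0.28 for 15. That list includes ATPIF1, which inhibits ATP synthase and is no assembly factor, and a median without it was not computed. SURF1, a complex IV assembly factor whose loss causes Leigh syndrome, measured 10.4, 10.8, 17.4, 18.7 and 27.3 FPKM at 0, 6, 12, 24 and 48 h in DBTRG-05MG and 14.9, 17.5, 17.4, 11.1 and 18.6 FPKM in U87. COX17, a copper chaperone for complex IV, measured 57.8, 95.2, 105, 99.2 and 90.6 FPKM in DBTRG-05MG and 68.4, 105, 80.8, 54.97 and 85.1 FPKM in U87. ATPIF1, the inhibitor of ATP synthase, measured 58.2, 60.8, 49.5, 50.4 and 41.4 FPKM in DBTRG-05MG and 108, 83.3, 93.2, 96.4 and 76.0 FPKM in U87, the lowest value of both lines being at 48 h. These 3 genes were picked after their values were seen, and no gene of the assembly factor lists passed a test over time.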
